A study of Mus musculus with 6 samples.

Results

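The miR-106b-25 cluster is a group of 3 microRNAs (miRNAs), mmu-miR-106b, mmu-miR-93 and mmu-miR-25, that are cut from a single primary transcript. They were chosen by name, as array entries equal to these names without their star forms, and are 3 of the 611 mouse miRNA entries on the array and 3 of the 84 that were tested. The cells were MCT, a renal tubular line from mice of the SJL H-2S background, and the RNA of each sample was read on its own one-colour array. There were 3 control arrays and 3 arrays after 72 hours with 3 ng/ml of TGFβ, transforming growth factor beta. Both groups grew in medium with 10% fetal calf serum, and the serum was lowered to 0.5% a day ahead of TGFβ, in a protocol that the labels give for all 6 samples. No label tells whether replicates came from separate cultures, so p-values reflect the spread between these 6 samples alone, and that spread may be technical. The comparison asks whether TGFβ, which halts the growth of epithelial cells and drives fibrosis in kidney, alters the level of these miRNAs.

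A miRNA guides a repressor complex to messenger RNAs mainly through its seed, bases 2 to 8 from its 5′ end. The cluster lies in an intron of Mcm7, which encodes a subunit of the replicative DNA helicase, and E2F factors, which switch on genes of DNA synthesis, drive its transcription. Known targets connect it to TGFβ: miR-106b and miR-93 repress Cdkn1a (p21), an inhibitor of the cell cycle, and miR-25 represses Bcl2l11 (Bim), a protein that promotes cell death, and both are effectors of TGFβ in epithelial cells.

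The hairpins are shown because the 3 members come from neighbouring stem-loops of one transcript. Sequences and positions are RefSeq's on build GRCm38.p6, where all 3 hairpins were found by name, and capitals mark the mature miRNA that the array entry names.
miR-106b hairpin, minus strand of chr5:138165737-138165818: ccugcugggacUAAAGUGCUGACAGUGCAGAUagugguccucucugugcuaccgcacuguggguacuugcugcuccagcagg
miR-93 hairpin, minus strand of chr5:138165523-138165610: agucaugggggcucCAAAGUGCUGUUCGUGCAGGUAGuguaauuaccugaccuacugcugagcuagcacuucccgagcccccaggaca
miR-25 hairpin, minus strand of chr5:138165321-138165404: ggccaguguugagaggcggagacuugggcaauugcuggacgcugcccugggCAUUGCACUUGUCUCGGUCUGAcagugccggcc
All 3 hairpins lie within the span of Mcm7 and on its strand, and together they cover 498 bases, with 126 bases between miR-106b and miR-93 and 118 between miR-93 and miR-25. In miR-106b and miR-93 the 5′ arm is the mature miRNA, whereas in miR-25 it is the 3′ arm.

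The mature sequences are shown with the seed in capitals, together with the paralogs that were tested and share a seed with a member, and with miR-17.
miR-106b: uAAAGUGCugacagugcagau
miR-93: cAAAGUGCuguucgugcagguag
miR-20a: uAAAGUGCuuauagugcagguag
miR-20b: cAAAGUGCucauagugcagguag
miR-17: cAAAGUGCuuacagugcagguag
miR-25: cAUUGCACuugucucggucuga
miR-92a: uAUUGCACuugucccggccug
The seed AAAGUGC is shared by miR-106b and miR-93, while miR-25 has AUUGCAC, so the transcript yields miRNAs of 2 seed families. Aligned from the 5′ end, miR-106b and miR-93 were equal at 16 of 21 bases. Paralogs were closer: miR-106b differed from miR-20a and from miR-17 at 3 of 21 bases each, miR-93 from miR-20b at 3 of 23, and miR-25 from miR-92a at 3 of 21. How far the probe of a family member also reads its relatives was not tested.

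On each array a signal was divided by that array's 75th percentile over 105 probes and brought back to intensity units. A spot is well above background by the flag of the scanner software, and a probe where at least 0.5 of its spots are. Per array, between 74 and 103 of 611 miRNAs were well above background. The percentile lay between 249.5 and 402.4 intensity units. Control 1 stood apart: its median absolute log2 difference over the 84 tested miRNAs was 0.48 from control 2 and 0.52 from control 3, but 0.16 from TGFβ 3, so the differences of the members and of the listed paralogs are also given without it. None of 9 markers of renal tubule and epithelium, among them miR-192 and miR-200c, was well above background anywhere, nor were 6 mesenchymal, 6 blood, 2 endothelial, 2 neuronal, 1 liver and 1 islet marker. Of 4 muscle markers only miR-206 was, and the summed scaled signal of the 4 ran from 15.5 to 22.9 in control and from 25.3 to 31.0 in TGFβ arrays. The part of that difference in the results below was not tested.

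All 3 members were well above background on all 6 arrays. After TGFβ, miR-25 and miR-93 read higher on average by 0.34 and 0.45 log2 units, or 1.26 and 1.37 times the control level, and miR-106b differed by -0.0038. None of the 3 differences passed the threshold, an adjusted p of 0.05 in limma, a linear model fitted over all tested miRNAs, and 0% of the 84 tested miRNAs did. Without adjustment, 8 of 84 had a p under 0.05 (9.52%), 5 of them higher after TGFβ (5.95%), miR-25 among these. Also among these were miR-714, miR-689 and miR-181b, well above background on 1 control and 3 TGFβ arrays. They were tested only through the TGFβ group, so the filter adds to the share on the higher side. The sizes of the members' differences depended on scaling, and for miR-25 and miR-106b the sign of the estimate did too. When arrays were scaled by their total gene signal miR-25 differed by -0.12 (SE 0.50), miR-93 by only 0.0025 (SE 0.49) and miR-106b by -0.46 (SE 0.48). Each of these lay within 1 SE of 0. Without scaling miR-106b differed by 0.34 (SE 0.28).

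**Figure D1:**
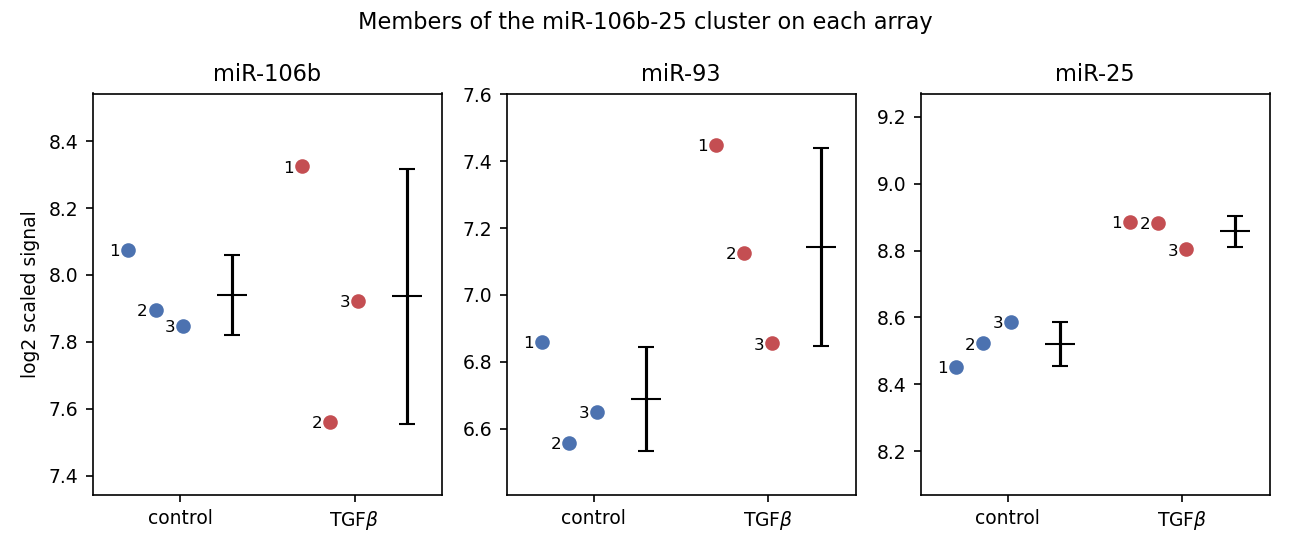
Log2 scaled signal of miR-106b, miR-93 and miR-25 on each array, with points numbered by replicate and bars giving mean and SD (n = 3); each vertical axis spans the same range of log2 units. The miR-25 groups do not overlap, the miR-93 groups touch at control 1 and TGFβ 3, and the miR-106b groups overlap fully.

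mmu-miR-25, which targets Bcl2l11, had log2 scaled signals of 8.45, 8.52 and 8.59 in controls 1 to 3, against 8.89, 8.88 and 8.80 in TGFβ 1 to 3. Every TGFβ array was above every control array, and control 1 was the lowest of all 6. The group means were 8.52 ± 0.067 and 8.86 ± 0.047 (SD, n = 3). The difference of 0.34 (SE 0.13, 95% interval 0.025 to 0.65) had an unadjusted p of 0.038 and an adjusted p of 0.391 in limma. The SD of its TGFβ arrays was the smallest of all 84 tested miRNAs, and the median SD was 0.21. The groups also did not overlap for 12 of 84 miRNAs (14.3%), 7 of them higher after TGFβ (8.33%), a count that includes miR-25. Without scaling, the mean intensities were 390.0, 302 and 294 in control and 529, 581 and 465 in TGFβ arrays. The groups were thus apart before scaling too, but most miRNAs read higher after TGFβ then. Without scaling 67 of 84 (79.8%) had a log2 difference above 0, with a median of 0.26.

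mmu-miR-93, which shares its seed with miR-106b, had log2 scaled signals of 6.86, 6.56 and 6.65 in controls 1 to 3, against 7.45, 7.13 and 6.85 in TGFβ 1 to 3. The groups overlapped only in that TGFβ 3 lay just below control 1, by 0.0038 log2 units. The means were 6.69 ± 0.15 and 7.14 ± 0.30 (SD, n = 3), and the difference of 0.45 (SE 0.20, 95% interval -0.032 to 0.94) had an adjusted p of 0.391 in limma. Intensities without scaling were 129, 77.4 and 76.7 in control and 195, 172 and 120.4 in TGFβ arrays. The spread within the TGFβ group, from 6.85 to 7.45, was larger than the difference between the group means. TGFβ 1 was the highest array, and without it the difference was 0.30 (SE 0.18, limma adjusted p = 0.571).

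mmu-miR-106b, the first of the 3 along the transcript, had log2 scaled signals of 8.08, 7.90 and 7.85 in controls 1 to 3, against 8.32, 7.56 and 7.92 in TGFβ 1 to 3. The highest and the lowest of the 6 values were both TGFβ arrays, with the controls between them. The means were 7.94 ± 0.12 and 7.94 ± 0.38 (SD, n = 3). The 95% interval of the difference ran from -0.55 to 0.54 (SE 0.22, limma adjusted p = 0.987), so differences of that size either way were not excluded by these arrays. The SD of the TGFβ arrays was above the median of 0.21, and 67 of the 84 tested miRNAs had a smaller one. Intensities without scaling were 300.3, 196 and 176 in control and 358, 232 and 252 in TGFβ arrays.

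Each member was read by 2 probes of 10 spots, and in each case 1 probe carried most of the signal. For miR-25, probe A_54_P1433 held between 94.4% and 95.7% of the summed signal. Its log2 difference was 0.33, and that of the dimmer probe A_54_P1432 was 0.44. The brighter ran from 670.1 to 733 scaled units in control and from 850.3 to 904 in TGFβ arrays. The dimmer ran from 30.7 to 36.4 in control and from 40.4 to 53.2 in TGFβ arrays. As the brighter probe carries most of the signal, its ranges largely restate those of miR-25 itself. The share of all probes whose groups were apart in this way was not computed. Of the 30 spots of the dimmer probe per group, 19 were well above background in control and 29 in TGFβ arrays.

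For miR-93, the brighter probe A_54_P1328 held between 93.1% and 96.4% of the signal and differed by 0.44. The dimmer probe A_54_P1327 was well above background only on TGFβ 1, with 0 of 30 spots in control and 7 of 30 in TGFβ arrays, so its difference of 0.80 rests on signal near background. The probes of miR-106b, A_54_P1263 and A_54_P1264, were well above background in all spots and differed by -0.0080 and 0.024. Both placed TGFβ 1 highest and TGFβ 2 lowest of the 6 arrays, so the wide spread of miR-106b after TGFβ did not come from 1 probe.

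**Figure D2:**
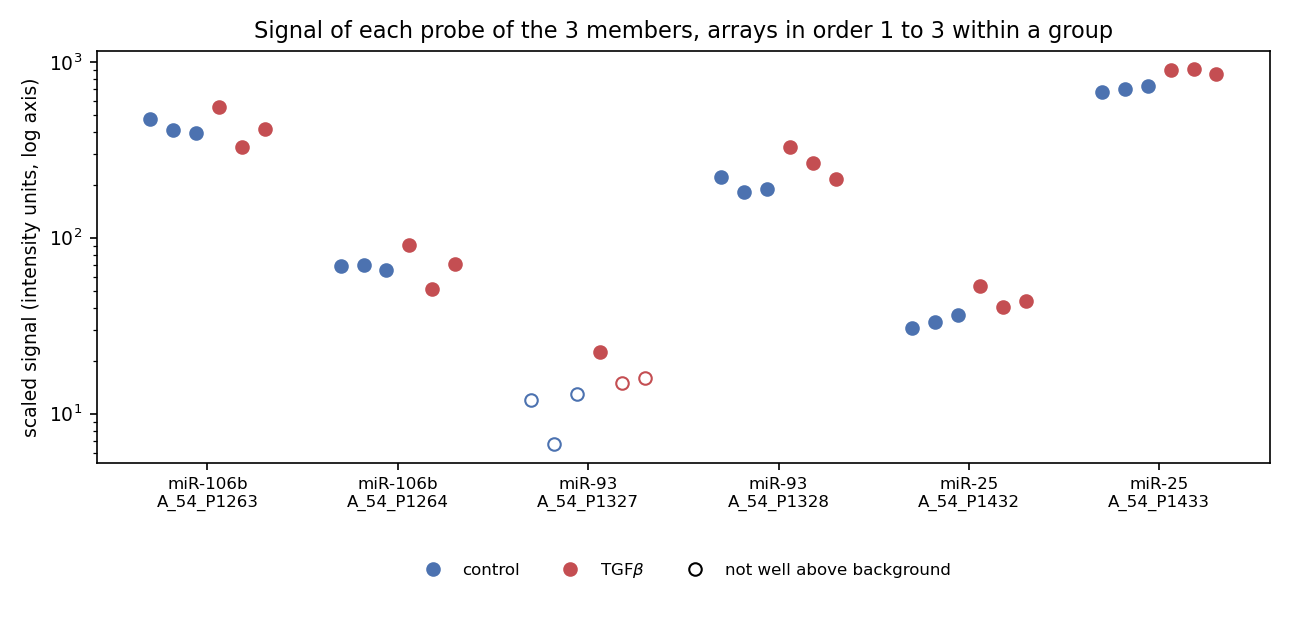
Scaled signal (intensity units, log axis) of the 6 probes of the members; points are arrays 1 to 3 of control and then of TGFβ, and open points were not well above background. Both miR-25 probes read higher on every TGFβ array, and 1 probe of miR-93 was above background only on TGFβ 1.

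The spread between spots of a probe differed by array. For the brighter miR-25 probe the coefficient of variation (CV) of spots was 25.9% on control 1 and 23.5% on TGFβ 2, whereas the remaining 4 arrays had 3.65% to 6.70%. For the brighter miR-106b probe it was 18.2% and 15.4% on those arrays, and for the brighter miR-93 probe 15.3% and 13.0%. The same held over the 105 probes above background throughout, with a median CV of 14% on control 1 and 13% on TGFβ 2 and between 7.0% and 7.8% elsewhere. Per the file headers these are the 2 arrays of column 1 of the slide. Without both, the difference was 0.29 for miR-25 (SE 0.079, limma adjusted p = 0.0556), 0.55 for miR-93 (SE 0.21, adjusted p = 0.117) and 0.25 for miR-106b (SE 0.15, adjusted p = 0.25), while 38 of 86 tested miRNAs passed.

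All 6 arrays were on 1 slide, in 2 rows, and the members were compared within its columns and rows. For miR-25, TGFβ 2 minus control 1 in column 1 was 0.43 and TGFβ 3 minus control 2 in column 2 was 0.28. In row 1, where TGFβ 1 lay beside the 3 controls, the difference was 0.37. Row 2 held TGFβ 2 and TGFβ 3 and no control, so a fit with the row as a block rests on TGFβ 1 alone. These miR-25 differences had to be positive, as its groups did not overlap. miR-93 was positive in the same comparisons, with 0.27, 0.30 and 0.76, none of which sets TGFβ 3 against control 1, its only overlap. For miR-106b the values were -0.51, 0.026 and 0.38, which differ in sign. Columns 3 and 4 held 1 array each, so with the column as a block the fitted difference is the mean of those in columns 1 and 2. That was 0.36 for miR-25 (SE 0.36), 0.28 for miR-93 (SE 0.35) and -0.24 for miR-106b (SE 0.37). In that fit limma called 0 of 84 miRNAs, with 2 at an unadjusted p under 0.05.

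The replicate numbers were used to pair the arrays, though no label says that same-numbered arrays belong together. With the number as a block limma called 1 of 84 miRNAs, miR-714, in place of 0, and none of the 3 members. miR-714 was well above background on only 1 of 3 controls, and its lowest value was the floor. The paired differences for numbers 1 to 3 were 0.43, 0.36 and 0.22 for miR-25. Any pairing would give positive values there, as its groups did not overlap. The values were 0.59, 0.57 and 0.21 for miR-93, where only a pairing of control 1 with TGFβ 3 could have been negative. For miR-106b the paired differences were 0.25, -0.33 and 0.074.

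Whether members of 1 transcript changed by unequal amounts was tested on the log2 difference between members within each array, from which any scaling factor drops out. The size of such a difference compares probes, not abundances, and only its shift between groups was read. For miR-93 minus miR-106b the values were -1.22, -1.34 and -1.20 in control and -0.88, -0.43 and -1.07 in TGFβ arrays. Every TGFβ array lay above every control array, and the means were -1.25 ± 0.076 and -0.79 ± 0.32 (SD, n = 3). The shift of 0.46 had p = 0.1 in an exact two-sided permutation test, the smallest that 3 against 3 arrays can give, and 0.3 adjusted over the 3 pairs.

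For miR-25 minus miR-106b the values were 0.38, 0.63 and 0.74 in control and 0.56, 1.32 and 0.88 in TGFβ arrays. The groups overlapped, and the shift was 0.34 (exact permutation p = 0.3, adjusted p = 0.45). For miR-25 minus miR-93 the values were 1.59, 1.97 and 1.94 in control and 1.44, 1.76 and 1.95 in TGFβ arrays. This shift was -0.12 (exact permutation p = 0.6, adjusted p = 0.6), within the SD of 0.21 and 0.26 of the groups. With 3 against 3 arrays this permutation test cannot go below 0.1, and a p above the threshold does not show that members changed alike. Without both arrays of slide column 1 the shift of miR-25 minus miR-106b was 0.039, and that of miR-93 minus miR-106b was 0.30.

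**Figure D3:**
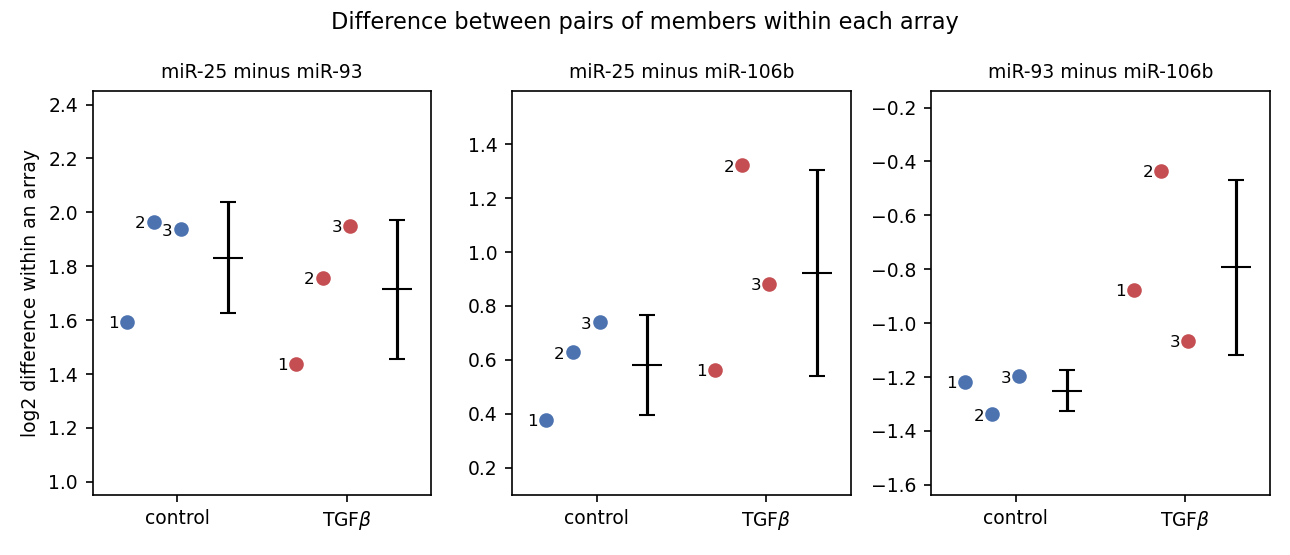
Log2 difference between pairs of members within each array, points numbered by replicate, bars giving mean and SD (n = 3), and each vertical axis spanning the same range. For miR-93 minus miR-106b the 3 TGFβ arrays lie above the 3 controls, and for the other pairs the groups overlap.

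The opposite arms of the hairpins, which are usually degraded, were read where the array carried them. miR-106b* was on no array well above background (0 of 120 spots) and miR-93* likewise (1 of 120 spots). miR-25* had no entry among the names used.

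The cluster has a pair of paralogous clusters, one from miR-17 to miR-92a, known for driving proliferation, and miR-106a-363 on the X chromosome, and their members were compared by fixed lists. Of the 6 miRNAs of the miR-17 cluster, 4 were tested, 3 above 0 and 1 below, with a median log2 difference of 0.22 (0.46 without control 1). Of the 6 of miR-106a-363, 3 were tested, 2 above 0 and 1 below, with a median of 0.35 (0.54 without control 1). Of these 2, miR-20b was well above background on 1 of 3 controls and on 3 TGFβ arrays. It was tested only through the TGFβ group, a filter that favours a positive sign. miR-19b and miR-92a have genes in both clusters and count in both lists. Over all 84 tested miRNAs 35 (41.7%) were above 0 and 49 below, with a median of -0.09 (-0.087 without control 1). No miRNA of either list passed in limma with all 6 arrays.

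Of the 6 miRNAs with the seed AAAGUGC, 5 were on the array and 4 were tested: miR-106b, miR-93, miR-20a and miR-20b. miR-20a had log2 scaled signals of 7.73, 6.77 and 6.69 in control and 7.63, 7.30 and 7.40 in TGFβ arrays. Control 1 was the highest of its 6 arrays, unlike for miR-25, where it was the lowest. The difference of miR-20a was 0.38 (SE 0.31, limma adjusted p = 0.505). miR-20b, of the X-linked cluster, read 4.47, 3.72 and 3.83 in control and 4.64, 4.40 and 4.60 in TGFβ arrays, and was well above background on 1 of the 3 controls, control 1. It was tested because all 3 TGFβ arrays were above background. Its measured difference of 0.54 (SE 0.23, limma adjusted p = 0.391) is therefore set against controls that mostly were not. miR-17 was at the floor of the scale on all 6 arrays.

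Of the 6 miRNAs with the seed AUUGCAC, all were on the array and 2 were tested, miR-25 and miR-92a. miR-92a read 8.11, 7.49 and 7.55 in control and 7.77, 8.30 and 8.13 in TGFβ arrays. Its groups overlapped through control 1, and the difference was 0.35 (SE 0.24, limma adjusted p = 0.464), close to the 0.34 of miR-25 but with a larger spread. miR-32, miR-92b, miR-363-3p and miR-367 were well above background on 0 of 6 arrays, and no fold is given for them. Among the other paralogs, miR-18a differed by 0.10 (SE 0.33), and by 0.38 (SE 0.27) without control 1. miR-19b differed by -0.0094 (SE 0.28), and by 0.035 (SE 0.32) without control 1.

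**Figure D4:**
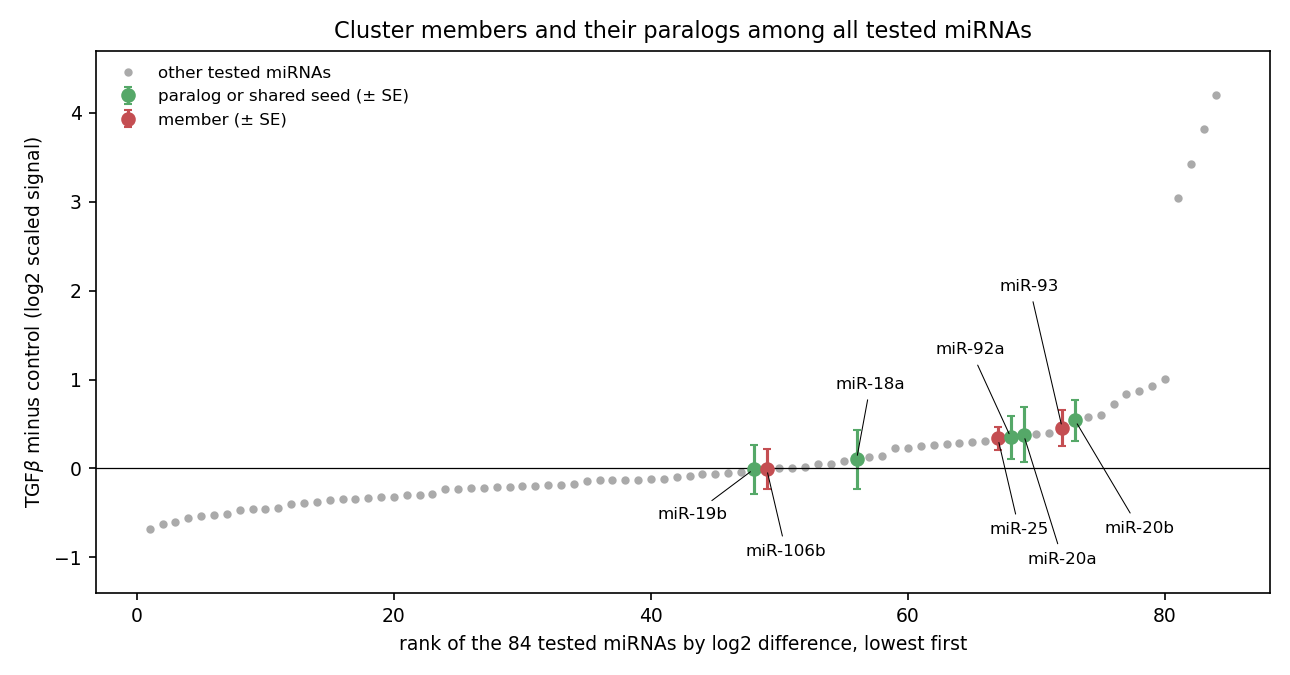
The 84 tested miRNAs ranked by log2 difference, TGFβ minus control, with the 3 members in red and tested miRNAs of the paralogous clusters or shared seeds in green (bars, SE); grey points are the others. miR-25, miR-93, miR-92a, miR-20a and miR-20b lie on the positive side, while miR-106b, miR-19b and miR-18a lie within 1 SE of 0 with all 6 arrays.

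Without control 1, 31 of 85 tested miRNAs passed in limma (36.5%), 11 of them higher after TGFβ (12.9%), and still none of the 3 members. The difference of miR-25 was then 0.30 (SE 0.10, adjusted p = 0.0734), that of miR-93 0.53 (SE 0.19, adjusted p = 0.0809) and that of miR-106b 0.058 (SE 0.24, adjusted p = 0.906). The groups of miR-93 no longer overlapped in that fit, as for 22 of 85 miRNAs on the higher side (25.9%). That count includes miRNAs tested only through the TGFβ group, such as miR-20b. miR-20a, with the seed of miR-106b and miR-93, passed (0.71, SE 0.14, adjusted p = 0.0208). miR-20b had an adjusted p of 0.0157 in limma, but was well above background on 0 of the 2 controls left, so no size is given. miR-92a did not (0.54, SE 0.19, adjusted p = 0.0809). Control 1 was left out because it lay near the TGFβ arrays, a choice these adjusted p-values do not allow for. The 2 controls left, controls 2 and 3, were the closest pair of all arrays, with a median absolute log2 difference of 0.058. The small spread behind these calls may therefore be technical.

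Of the other settings, only weights estimated for each array brought members past the threshold. The weight of control 1 was then 0.14 and those of controls 2 and 3 were 3.71 and 3.08. miR-25 differed by 0.28 (SE 0.084, limma adjusted p = 0.0288) and miR-93 by 0.41 (SE 0.14, adjusted p = 0.0462), while miR-106b differed by 0.037 (adjusted p = 0.858). In that fit 45 of 84 miRNAs passed (53.6%), 18 of them higher (21.4%). Over all settings the adjusted p lay between 0.0288 and 0.941 for miR-25, 0.0462 and 0.996 for miR-93, and 0.25 and 1.0 for miR-106b.

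The members themselves entered the scaling. The probe at the 75th percentile was the brighter miR-93 probe on TGFβ 1 (365.3 intensity units) and the brighter miR-106b probe on TGFβ 2 (402.4), so each read 326.8 scaled units there. With the percentile taken without the members' probes, the differences were 0.34 for miR-25, 0.46 for miR-93 and 0.0014 for miR-106b. Scaling moved the median of all tested miRNAs from -0.09 to 0.26 with none and to -0.54 with total gene signal. Measured from that median, miR-25 stood at 0.43, miR-93 at 0.54 and miR-106b at 0.086. These distances are the same by construction under any scaling that divides each array by 1 factor, so they say nothing of stability. With quantile normalization the same distances were 0.73, 0.55 and 0.093, and with the normexp background correction 0.42, 0.35 and 0.11.

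**Figure D5:**
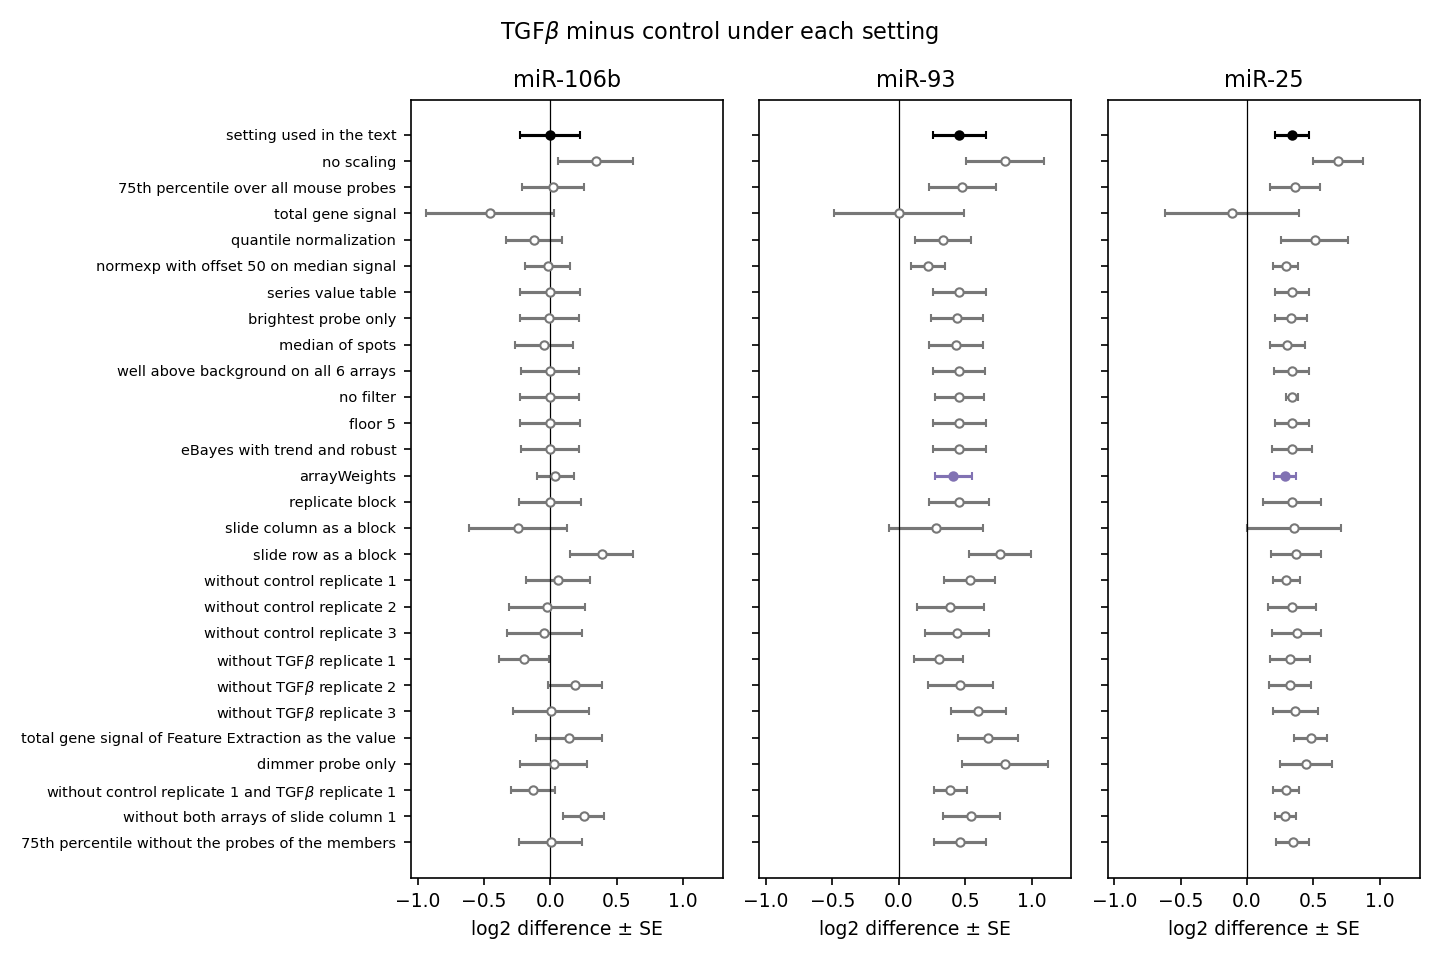
Log2 difference, TGFβ minus control, of each member under the setting used in the text (black) and each alternative (grey; purple filled points passed an adjusted p of 0.05; bars, SE). miR-25 lies above 0 except with total gene signal, miR-93 lies above 0 throughout, though at 0.0025 with total gene signal, and miR-106b lies on both sides.

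The 5 other tested miRNAs whose log2 signal followed the mean of the 3 members most closely over the 6 arrays were miR-1224 (Pearson r = 0.99), miR-714 (0.98), miR-494 (0.98), miR-31 (0.98) and miR-181b (0.97). These r describe 6 arrays that share 1 slide and fall into 2 groups. miR-714, miR-494 and miR-181b were well above background on 4 of 6 arrays, 1 control and 3 TGFβ, and so were tested only through the TGFβ group. Their r rest partly on values at background, and the lowest value of miR-714 was the floor. miR-1224 read 14.48 on TGFβ 1 and at most 8.64 elsewhere, miR-494 11.62 and at most 5.69, and miR-714 7.88 and at most 3.91. Over the 5 arrays without TGFβ 1 the r were 0.97, 0.98, 0.91, 0.93 and 0.97 in the same order. Between members, r was 0.76 for miR-93 with miR-25, 0.38 for miR-106b with miR-93 and -0.061 for miR-106b with miR-25. Among miRNAs outside the cluster, miR-106b was most like miR-19b of the paralogous clusters (r = 0.98), miR-93 most like miR-31 (r = 0.98) and miR-25 most like miR-350 (r = 0.76). Each is the highest r out of all other tested miRNAs, over only 6 arrays. For the other tested paralogs, r with miR-106b was 0.81 (miR-18a), 0.48 (miR-20a), 0.35 (miR-20b) and -0.30 (miR-92a). miR-350 too was well above background on 4 of 6 arrays, 1 control and 3 TGFβ.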

How the data were processed

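Total RNA (100 ng) was labelled with Cy3, per the labels' protocols. The deposited spot intensity is Agilent Feature Extraction's signal after background subtraction, with no scaling across arrays per the file headers, which give version 10.7.3.1; the submitters' processing notes give 10.1.1. The deposited 0 or 1 flags mark outlier, saturated and well above background spots, as the file headers name them. Saturation was flagged on 0 spots. The series value table equals the spot values (largest difference 0).

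Spots without outlier flags were averaged per probe and probes per miRNA. Arrays were scaled to their 75th percentile (105 probes, those well above background on all 6), a floor of 1 was set and log2 taken. A miRNA was tested if well above background on all 3 arrays of a group. TGFβ was set against control with limma 3.58.1 under R 4.3.3 (two-sided, Benjamini-Hochberg), tested on simulated data first. Arrays left out were also left out of the scaling and the filter. Figures used matplotlib 3.10.9. Same-numbered arrays deviated together (r = 0.38, 0.37 and 0.52 over 84 miRNAs), but control 2 followed TGFβ 3 more closely than TGFβ 2. The titles give only the numbers, so the pairing is not established.

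Controls 2 and 3, the closest pair of arrays, are counted as separate samples because the labels list them so. Depth has no meaning for arrays, and their number limits precision. The members and lists were chosen with earlier results of these data known. Named miRNAs were the members, their opposite arms, the listed paralogs and seed relatives, the 5 most alike in pattern, and any on which a count turned. miR-350 and miR-689 were named after their values were seen. The array names carry no arm and were matched to RefSeq arms by hand (16 names). The genome build in the headers differs from that of the RefSeq table.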

Additional observations from a re-analysis of the deposited data

How the results depend on the processing

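The difference of miR-106b, near 0, was -0.46 with total gene signal, -0.24 with the slide column as a block and -0.12 with quantile normalization. It turned positive with no scaling (0.34), the percentile over all mouse probes (0.020) or without the members' probes (0.0014), and array weights (0.037). It was also positive with Feature Extraction's total gene signal as the value (0.14), the dimmer probe only (0.024) and without slide column 1 (0.25). With the slide row as a block it was 0.38, which sets TGFβ 1 alone against the controls. miR-25 turned to -0.12 (SE 0.50) with total gene signal. With array weights miR-25 (0.28) and miR-93 (0.41) passed, although that estimate did not reach its convergence tolerance. The count of passing miRNAs was 4 with total gene signal, 45 with array weights and 1 with the replicate block. It was 38 without slide column 1, and 35 without control 1 and TGFβ 1. No count is given for the slide row as a block, where only TGFβ 1 informs the difference. The shift of miR-25 minus miR-93 turned to 0.18 with quantile normalization and 0.070 with normexp. The causes were not tested.

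With 1 array left out in turn, the difference ranged from 0.30 to 0.37 for miR-25, 0.30 to 0.60 for miR-93 and -0.20 to 0.18 for miR-106b, and the count from 0 to 31, the latter without control 1. Without control 2 or control 3 no miRNA reached even an unadjusted p under 0.05 in limma. The shift of miR-25 minus miR-93 then ranged from -0.24 to 0.020, that of miR-25 minus miR-106b from 0.14 (without TGFβ 2) to 0.52 (without TGFβ 1), and that of miR-93 minus miR-106b from 0.28 to 0.60. The replicate block changed no call of a member. The last 5 settings in the plot of settings were chosen after seeing the data. Those without a whole column, and without control 1 and TGFβ 1, leave 2 arrays a group.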
